A study of Homo sapiens with 64 samples.

Results

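What the class IIa deacetylase inhibitor TMP195 changed in H1703 cells that also received MYCi975 was read from 8 RNA-seq libraries of 64 in the study, 4 of cells given both compounds (Combo) and 4 of cells given MYCi975 alone. The libraries were taken by line and treatment from the study's table of raw counts. The comparison and the gene lists below were chosen with earlier results of these data known. List counts set beside the share of all genes therefore describe these data and are not a separate test. H1703 is an established line from a human non-small cell lung cancer, known for an amplified PDGFRA gene. MYCi975, given at 5 µM, is a small molecule that binds the MYC protein and lowers its activity, and TMP195, given at 25 µM, blocks HDAC4, HDAC5, HDAC7 and HDAC9, which make up class IIa of the histone deacetylases. The 4 treatments of H1703 were Combo, MYCi975 alone, TMP195 alone and the solvent DMSO (vehicle), each for 24 hours and each with 4 libraries, and no separate doses are stated for the combination. The labels do not say whether the libraries of a group came from separate cultures, so p-values set a difference against the spread between libraries and not between known cultures. For gene calls that spread was estimated over all 16 H1703 libraries, with vehicle and TMP195 included.

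MYC is a transcription factor that, with its partner MAX, drives growth and cell division. Class IIa deacetylases have little catalytic activity of their own and act as corepressors of the MEF2 transcription factors and others. Of the factors behind the gene groups described below, E2F factors drive the genes of DNA replication, the SREBP factors drive sterol and fatty acid synthesis when sterol is scarce, and ATF6 and XBP1 drive the chaperones of the endoplasmic reticulum (ER) when unfolded protein builds up there.

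The 8 libraries held 19719225 to 29738700 counts in genes. PDGFRA stood at 721 to 1013 CPM (a library's counts scaled to a common total) in Combo libraries and at 787 to 957 CPM in MYCi975 libraries, against 0.205 to 10.6 CPM in the other 3 lines. The 6 epithelial markers together gave 37.5 to 55.0 CPM in Combo and 38.4 to 61.5 CPM in MYCi975 libraries. Of these, EPCAM and CDH1 were below 1 CPM in every one of the 8 libraries. KRT8 stood at 16.3 to 22.7 CPM in Combo and 16.5 to 25.1 CPM in MYCi975 libraries, and KRT18 at 17.0 to 24.3 and 17.9 to 29.5 CPM. The 6 immune markers together gave 0.783 to 1.06 CPM in Combo and 0.257 to 0.533 CPM in MYCi975 libraries. Replicate 4 of each treatment and Combo replicate 2 belong to a second set of libraries, which no label dates. Mitochondrial ribosomal RNA took 7.32% to 7.39% of counts in Combo libraries of that set and 7.84% in the MYCi975 library of that set. In the first set it took 10.9% and 13.3% in Combo libraries and 12.3% to 13.7% in MYCi975 libraries. Over all 8 libraries the share was 9.72% ± 2.89 in Combo and 11.8% ± 2.69 in MYCi975 (SD, n = 4 each; two-sided exact permutation test, p = 0.257, where the smallest possible value is 0.0286).

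The library labelled MYCi975 replicate 4 stood apart from the other 3 of its group. Over the 2009 genes called between TMP195 and vehicle, a comparison of neither Combo nor MYCi975 means whose spread was estimated over all 16 H1703 libraries, each library was placed on an axis on which 0 is the mean of vehicle replicates 1 to 3 and 1 the mean of TMP195 replicates 1 to 3, on the log2(CPM + 1) scale. The median place over these genes was 1.45, 1.42, 1.40 and 1.47 in Combo replicates 1 to 4. It was 0.761, 0.765 and 0.72 in MYCi975 replicates 1 to 3 and 1.36 in the library labelled MYCi975 replicate 4, which lay next to the Combo libraries. Combo replicates 2 and 4, of the same library set, lay with the other Combo libraries, while vehicle and TMP195 replicate 4 were not placed on this axis. On the main axis of variation of the 16 libraries (principal component 1), every replicate 4 lay below the rest of its group. It was at 18.6 against 43.3 to 49.2 in vehicle, -26.7 against 8.73 to 11.6 in TMP195, -53.1 against 14.9 to 22.1 in MYCi975 and -69.9 against -43.0 to -26.7 in Combo. The part of the library set in the place of the library labelled MYCi975 replicate 4 was not tested. Its label may be wrong, and the files hold no other record of its treatment; every value from all 8 libraries takes the label as given. Results below are given with all 8 libraries and, for each list described, also as counts of calls with the first set alone, which has 2 Combo and 3 MYCi975 libraries. The first set called 7.95% of all genes tested higher and 9.06% lower, and its list counts stand beside these shares. The second set has 1 MYCi975 library, so no comparison was made within it.

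**Figure D1:**
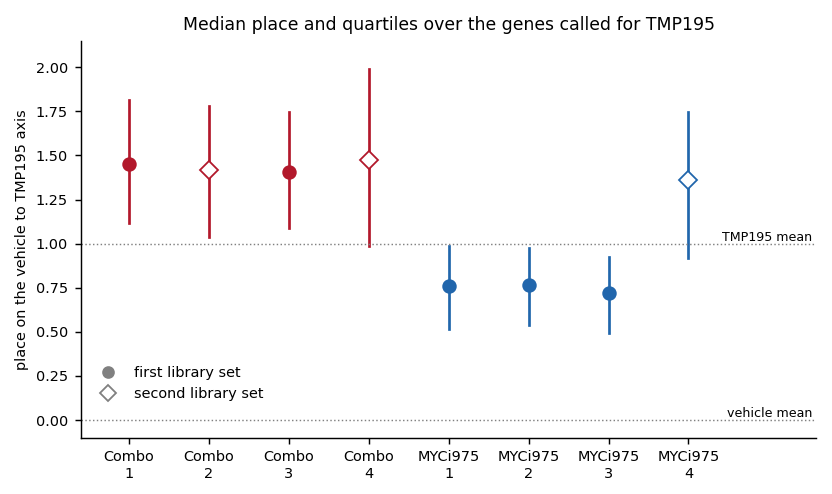
Median (point) and quartiles (line) of the place of each Combo and MYCi975 library of H1703 on the axis between the vehicle mean (0) and the TMP195 mean (1), over the 2009 genes called between TMP195 and vehicle; filled circles are the first library set and open diamonds the second. The library labelled MYCi975 replicate 4, at 1.36, lies near the 4 Combo libraries, at 1.40 to 1.47, and above the other MYCi975 libraries, at 0.72 to 0.765.

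With TMP195 on top of MYCi975, 8 of 23 ER chaperone and regulator genes were called higher, CREB3L2 and DNAJB9 among them, and 20 of 59 genes of DNA replication and 12 genes of sterol regulation and lipid synthesis were called lower. Of 20827 genes tested, 355 were called at an adjusted p below 0.05 (1.70%; edgeR's quasi-likelihood test with Benjamini-Hochberg adjustment), 140 higher in Combo (0.672%) and 215 lower (1.03%). The changes were modest, with a median of 0.63 on the log2 scale in either direction, and 49 of the 355 reached 1. In 215 of the 355 the Combo and MYCi975 libraries did not overlap, against 5.57% of all genes tested. With the first set of libraries alone 3568 genes were called (17.0%), of which 1668 were higher (7.95%) and 1900 lower (9.06%). All 354 of the 355 that could be tested there kept their direction, 351 of them with a call. The first set is part of the libraries that gave the 355, so this is no separate support. Without the library labelled MYCi975 replicate 4, and with all others kept, 4548 genes were called.

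CREB3L2 (chr7:137874979-138002067, minus strand, GRCh38), a membrane-bound transcription factor of the secretory pathway, had the smallest p of the named genes. It had 63.2, 64.4, 72.7 and 62.0 CPM in Combo libraries, against 34.3, 30.6, 31.1 and 30.2 CPM in MYCi975 libraries. The groups lay far apart and the second-set libraries lay close to the rest of their groups (log2 fold change 1.06 ± 0.08 SE, adjusted p = 1.21e-06). DNAJB9 (chr7:108569568-108574850, plus strand), a co-chaperone that restrains the ER stress sensor IRE1, had 28.4, 31.8, 28.3 and 31.8 CPM in Combo libraries, against 11.1, 10.7, 10.0 and 15.2 CPM in MYCi975 libraries. The highest MYCi975 library was the one labelled replicate 4, and the groups did not overlap (log2 fold change 1.35 ± 0.13, adjusted p = 5.75e-05). Both genes kept their call under every alternative listed in the closing section.

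NGFR, the low-affinity nerve growth factor receptor, was the largest of the named rises. It had 144, 90.7, 115 and 123 CPM in Combo libraries, against 29.7, 22.3, 21.3 and 76.0 CPM in MYCi975 libraries. The other 3 MYCi975 libraries were all below the library labelled replicate 4, which in turn was below the lowest Combo library (log2 fold change 1.65 ± 0.29, adjusted p = 0.011; 2.41 in the first set). NGFR overlaps the antisense gene NGFR-AS1 and the strand setting of the counting is not given in the sources used here, so reads of this pair cannot be told apart. Of the other named rises, SLC16A6, a monocarboxylate transporter family member, rose by 1.08 ± 0.20 and ICA1, a protein of secretory vesicles, by 0.85 ± 0.18. TBX2, a T-box repressor, rose by 0.92 ± 0.17, ACKR4, a decoy chemokine receptor, by 0.94 ± 0.16, NUDT16, a nuclear decapping hydrolase, by 0.86 ± 0.13 and DIXDC1, a Wnt pathway protein, by 0.85 ± 0.16. CCDC171 rose by 0.96 ± 0.21 and ODC1-DT, the transcript divergent from the ornithine decarboxylase gene, by 0.87 ± 0.17. TVP23C rose by 1.01 ± 0.21, a value that is uncertain because its paralog TVP23B is nearly identical. The adjusted p of the 12 named rises ran from 1.21e-06 to 0.032.

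**Figure D2:**
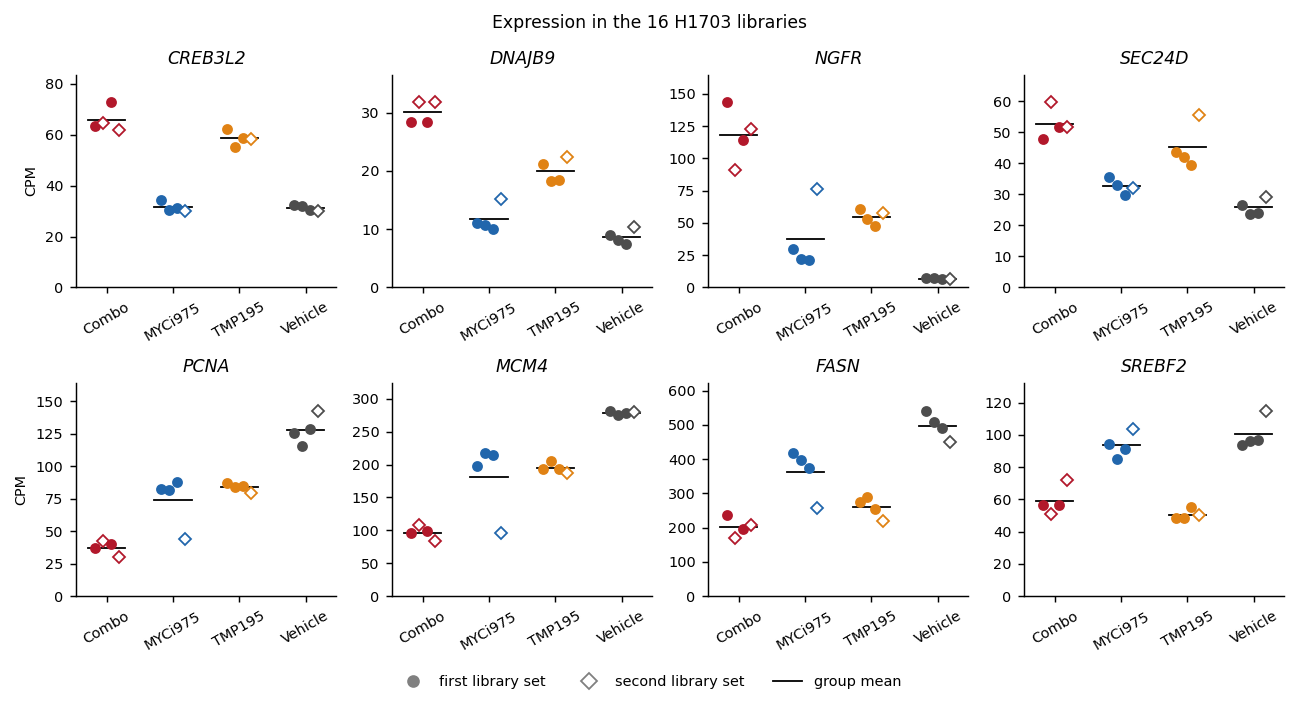
CPM (y axis, from 0) of 8 genes in each of the 16 H1703 libraries, by treatment; filled circles are the first library set, open diamonds the second and black lines the mean of 4 libraries. CREB3L2 and SEC24D separate Combo from MYCi975 in every library, while in NGFR, PCNA, MCM4 and FASN the library labelled MYCi975 replicate 4 (blue diamond) lies toward the Combo libraries.

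Several chaperones and co-chaperones of the ER rose. Of 23 list members tested, among them folding enzymes and sensors, 8 were called higher and 0 lower, beside 0.672% and 1.03% of all genes, and the list median was 0.24 on the log2 scale against -0.0042 over all genes tested. The first set gave 11 called higher and 0 lower. The count was 2 without any 1 of MYCi975 replicates 1 to 3, 3 without Combo replicate 1 or 4 and 5 without Combo replicate 2 or 3, and 2 with the 8 libraries fitted alone. The 8 were the transcription factor CREB3L2, the co-chaperones DNAJB9, DNAJC3 and SIL1, the chaperones HSPA5, HSP90B1 and CANX, and the secreted protective factor MANF. HSP90B1, the ER member of the HSP90 family, had 1072, 1045, 1092 and 1089 CPM in Combo libraries, against 784, 818, 858 and 815 CPM in MYCi975 libraries, with no overlap (log2 fold change 0.39 ± 0.07, adjusted p = 0.0166). HSPA5, the chief ER chaperone and known as BiP, had 968, 1326, 1276 and 1666 CPM in Combo libraries, against 513, 512, 568 and 1129 CPM in MYCi975 libraries. Its groups overlapped through the library labelled MYCi975 replicate 4 (log2 fold change 0.94 ± 0.23, adjusted p = 0.0478; 1.09 in the first set).

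The ER stress element, to which ATF6 binds together with the factor NF-Y, reads CCAAT and CCACG with 9 bases between, and it was searched on both strands in the RefSeq promoter windows of GRCh38.p14, which run from 250 bases before to 50 bases after a gene's start. It lay in 27 of 35116 windows (0.0769%), in 17 of the 12252 tested genes with a window (0.139%) and in 7 of 22 ER chaperone genes with a window, among them the called genes HSPA5, HSP90B1 and CANX. The fourth called gene with a match was FICD, an ER enzyme that modifies HSPA5; it is on no list and was singled out after its values were seen. FICD averaged 16.8 ± 1.79 CPM in Combo and 9.77 ± 0.671 CPM in MYCi975 libraries (SD, n = 4 each; log2 fold change 0.78 ± 0.12, adjusted p = 0.00727). The chaperone list holds well-known targets of this element, so its share is not independent of how the list was made. Of the 8 called list members 3 held a match (37.5%), beside 31.8% of all list members with a window. Matches were thus about as common over the whole list, and the called members do not all share the element. A match is a description and not a measured binding site. The stretches around the match in HSPA5 and FICD are shown 5′ to 3′ on the strand of the gene, with the matched element in capitals. They lie at chr9:125241331-125241469 on the minus strand for HSPA5 and at chr12:108515063-108515201 on the plus strand for FICD. Both matches lie upstream of the annotated start, and the HSPA5 stretch runs a few bases past it.
HSPA5: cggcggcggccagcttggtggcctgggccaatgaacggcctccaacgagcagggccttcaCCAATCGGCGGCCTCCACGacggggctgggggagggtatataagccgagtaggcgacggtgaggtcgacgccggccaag
FICD: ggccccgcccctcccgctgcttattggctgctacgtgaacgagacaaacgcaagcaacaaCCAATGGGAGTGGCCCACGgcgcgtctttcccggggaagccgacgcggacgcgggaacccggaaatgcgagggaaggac

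In the disposal and export routes of the ER a few genes were called, beside 0.672% of all genes called higher and 1.03% lower. Of 23 genes of ER-associated degradation, 2 were called higher and 0 lower, with a median of 0.12, and in the first set 7 and 0 were. EDEM2, a lectin-like protein that marks misfolded glycoproteins, had 16.3, 16.7, 15.2 and 14.7 CPM in Combo libraries, against 10.8, 10.7, 9.69 and 10.8 CPM in MYCi975 libraries (log2 fold change 0.58 ± 0.10, adjusted p = 0.00955). SELENOS, a selenoprotein of the same machinery, rose by 0.59 ± 0.12 (adjusted p = 0.0265). Of 40 genes of the COPII coat and secretory export, 3 were called higher and 1 lower around a median of 0.0023. In the first set 4 and 6 were, beside 7.95% and 9.06% of all genes. Those that rose were the cargo adaptor SEC24D (0.70 ± 0.11), the coat subunit SEC23B (0.47 ± 0.08) and the translocon partner SEC63 (0.41 ± 0.07), and the scaffold SEC16A fell (-0.30 ± 0.07).

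Some genes of DNA replication fell. Of 59 list members tested, 20 were called lower and 0 higher, beside 1.03% and 0.672% of all genes, with a list median of -0.46; 57 of the 59 had a negative estimate. In the first set 51 were called lower and 0 higher, with a median of -0.61. The count was 1 without Combo replicate 4 or any 1 of MYCi975 replicates 1 to 3, 2, 4 and 6 without Combo replicates 3, 1 and 2, and 50 without the library labelled MYCi975 replicate 4. With the 8 libraries fitted alone it was 0. In a bulk culture, fewer cells in S phase and less RNA of these genes per cell cannot be told apart. PCNA (chr20:5114953-5126626, minus strand), the sliding clamp of DNA polymerases, had 37.1, 42.9, 39.8 and 30.1 CPM in Combo libraries, against 82.6, 81.4, 87.8 and 43.8 CPM in MYCi975 libraries. The library labelled MYCi975 replicate 4 lay just above the highest Combo library and the other 3 lay well above it (log2 fold change -0.98 ± 0.16, adjusted p = 0.00892; -1.11 in the first set). MCM4, a subunit of the replicative helicase, had 96.2, 108, 99.3 and 83.3 CPM in Combo libraries, against 197, 218, 214 and 96.4 CPM in MYCi975 libraries, and the groups overlapped through the same library (log2 fold change -0.91 ± 0.17, adjusted p = 0.0172).

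Among the 20, all of MCM2, MCM3, MCM4, MCM5, MCM7 and MCM10 fell, as did the nucleotide synthesis enzymes RRM2, TYMS and TK1. RRM2, the small subunit of ribonucleotide reductase, had 97.1, 100.1, 82.9 and 95.3 CPM in Combo libraries, against 183, 203, 166 and 104 CPM in MYCi975 libraries (log2 fold change -0.80 ± 0.15, adjusted p = 0.0161). The lowest MYCi975 library, again the one labelled replicate 4, was just above the highest Combo library. In each of the 20 genes the library labelled MYCi975 replicate 4 was the lowest of its group. PCLAF, a partner of PCNA, fell by 0.97 on the log2 scale, ASF1B, a histone chaperone, by 0.91 and SUV39H1, a histone methyltransferase, by 0.77.

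The E2F element, written TTTNNCGC and searched on both strands in the same windows, lay in 12.3% of tested genes with a window, in 22.6% of genes called lower (36 of 159), in 7.84% of genes called higher (8 of 102) and in 26 of 47 replication genes with a window (55.3%). The replication list holds well-known E2F targets, so its share is not independent of how the list was made. PCNA had 1 match and MCM3 3, and their windows are shown because these genes carry the fall of the clamp and the helicase; the matched letters are in capitals, the sequence is 5′ to 3′ on the strand of the gene, and a match on the other strand reads as the reverse complement. They lie at chr20:5126614-5126741 and chr6:52284693-52284976, both on the minus strand.
PCNA: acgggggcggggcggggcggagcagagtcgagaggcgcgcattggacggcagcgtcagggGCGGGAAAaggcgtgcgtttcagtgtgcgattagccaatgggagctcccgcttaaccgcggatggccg
MCM3: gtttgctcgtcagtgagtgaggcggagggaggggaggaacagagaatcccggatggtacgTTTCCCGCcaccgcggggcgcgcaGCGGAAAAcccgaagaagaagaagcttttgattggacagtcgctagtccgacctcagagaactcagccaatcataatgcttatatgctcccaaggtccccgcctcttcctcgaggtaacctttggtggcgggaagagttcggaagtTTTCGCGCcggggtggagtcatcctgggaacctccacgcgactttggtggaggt

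Calls in the other cell cycle groups with all 8 libraries stand beside 0.672% of all genes called higher and 1.03% lower. Of 16 G1 cyclins and partners 2 were called lower and 0 higher, the phosphatase CDC25A (-0.92 ± 0.19, adjusted p = 0.0269) and cyclin CCNE1 (-0.65 ± 0.16, adjusted p = 0.0493), and 9 were called lower in the first set. Of 46 replication-dependent histone genes 3 were called lower and 0 higher, with a median of -0.70 and all 46 estimates below 0, and 24 were called lower in the first set; these genes resemble each other and reads may be split between them. Of 55 mitotic genes 1 was called lower and 0 higher, with a median of -0.10. That gene was ESPL1, the protease separase, with 30.7, 27.0, 31.8 and 32.8 CPM in Combo libraries against 43.8, 44.4, 47.0 and 35.1 CPM in MYCi975 libraries (log2 fold change -0.48 ± 0.10, adjusted p = 0.032). With the first set 20 mitotic genes were called lower and 1 higher, and without any 1 Combo library or any 1 of MYCi975 replicates 1 to 3 the count was 0.

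**Figure D3:**
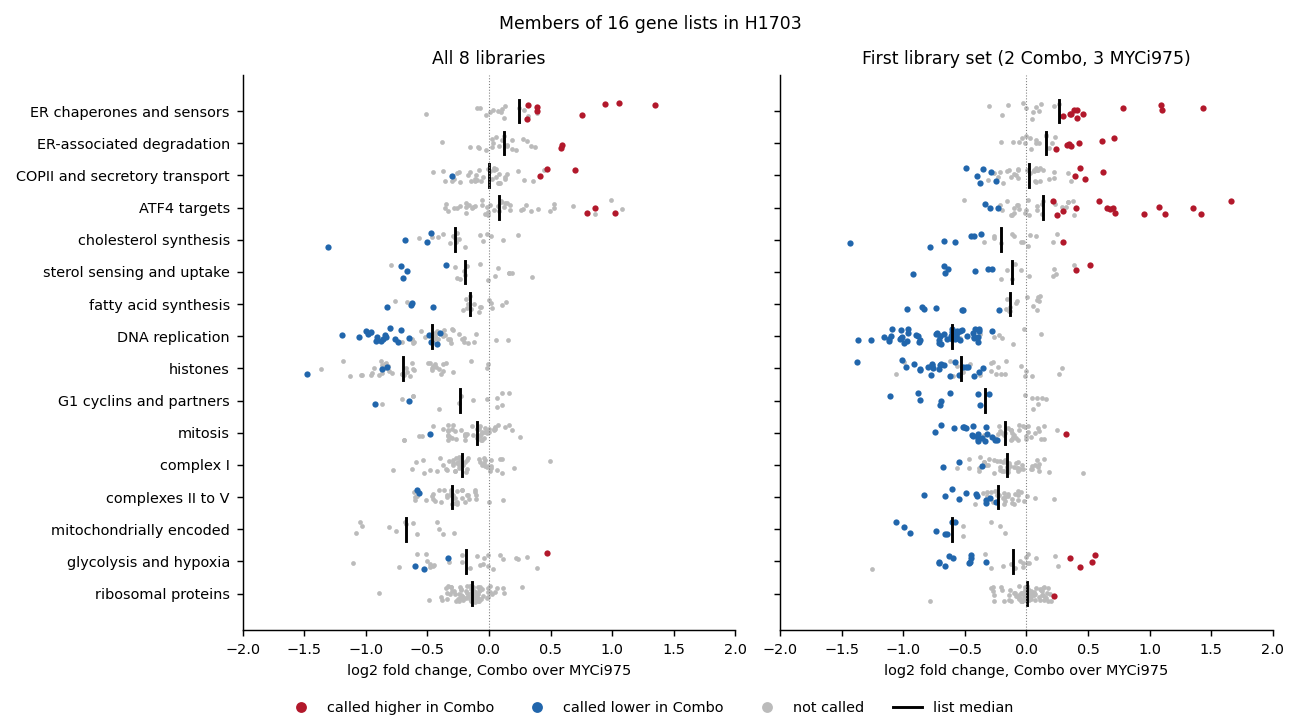
Log2 fold change of Combo over MYCi975 (x axis) of the tested members of 16 gene lists in H1703, with all 8 libraries (left) and with the first set of 2 Combo and 3 MYCi975 libraries (right); red and blue points passed an adjusted p of 0.05, grey ones did not, and black bars are list medians. DNA replication genes lie to the left of 0 in both panels, with 20 and 51 of 59 called lower, and ER chaperones to the right, with 8 and 11 of 23 called higher.

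Some sterol and fatty acid genes fell, beside 1.03% of all genes called lower and 0.672% higher. In cholesterol synthesis 4 of 21 genes were called lower and 0 higher, with a median of -0.28, and in the first set 7 were called lower and 1 higher. Without MYCi975 replicate 2 or 3 the count called lower was 2, and with the 8 libraries fitted alone it was 0. DHCR7 (-0.68 ± 0.11), ACAT2 (-0.50 ± 0.09) and IDI1 (-0.47 ± 0.09), enzymes of this pathway, were among them.

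Among genes of SREBP regulation and sterol uptake 4 of 19 were called lower and 0 higher, beside 1.03% and 0.672% of all genes. The median was -0.19 and 13 of 19 estimates were below 0. In the first set 7 were called lower and 2 higher. SREBF2, which encodes the SREBP2 factor, had 56.7, 51.0, 56.2 and 71.9 CPM in Combo libraries, against 94.4, 84.9, 91.4 and 104 CPM in MYCi975 libraries, without overlap (log2 fold change -0.67 ± 0.10, adjusted p = 0.00869). INSIG1, which retains the SREBP complex in the ER, fell by 0.72 and TMEM97, a sterol-responsive membrane protein, by 0.35 on the log2 scale. In fatty acid synthesis 4 of 21 were called lower and 0 higher, with a median of -0.16, and in the first set 7 and 0 were. FASN, the fatty acid synthase, had 238, 170, 197 and 207 CPM in Combo libraries, against 417, 397, 374 and 257 CPM in MYCi975 libraries (log2 fold change -0.83 ± 0.13, adjusted p = 0.00892). ACACA (-0.62 ± 0.09) and ACLY (-0.45 ± 0.08), which act before it, and DGAT2 (-0.63 ± 0.10), which makes triglyceride, were the others.

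The sterol regulatory element, written TCACNCCAC and searched on both strands, lay in 1.13% of all RefSeq windows and in 1.44% of those of tested genes. Of the 12 genes of these 3 lists that fell, 7 had a window, and that of SREBF2 alone held a match. The stretch around it, at chr22:41832912-41833040 on the plus strand with the match in capitals, is shown because this gene encodes the factor of the pathway itself; no match in the other 6 says only that these letters are not in their windows.
SREBF2: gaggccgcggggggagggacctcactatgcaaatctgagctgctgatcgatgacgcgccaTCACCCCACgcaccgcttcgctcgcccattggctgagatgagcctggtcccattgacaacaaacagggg

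No gene of a protein that the compounds address passed the test, while MEF2A, a gene of the MEF2 factors on which class IIa deacetylases act, did. MEF2A had 152, 162, 124 and 174 CPM in Combo libraries, against 93.4, 92.6, 81.5 and 141 CPM in MYCi975 libraries, and the groups overlapped through the library labelled MYCi975 replicate 4 (log2 fold change 0.58 ± 0.14, adjusted p = 0.0478). MEF2C (0.40 ± 0.18, adjusted p = 0.224) and MEF2D (0.27 ± 0.10, adjusted p = 0.142) did not. HDAC4 (-0.13 ± 0.09), HDAC5 (0.23 ± 0.16), HDAC7 (0.02 ± 0.13) and HDAC9 (0.11 ± 0.13) were not called, with adjusted p from 0.415 to 0.944. MEF2A was thus 1 of 7 genes called higher, beside 0.672% of all genes. Of these 7 genes the first set gave 3 called higher and 0 lower. MYC had 104, 81.3, 104 and 132 CPM in Combo libraries, against 99.7, 81.4, 102 and 106 CPM in MYCi975 libraries, which overlapped (log2 fold change 0.12 ± 0.12, adjusted p = 0.6). MYCi975 acts on the MYC protein, which was not measured here.

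Stress response genes rose in part, beside 0.672% of all genes called higher and 1.03% lower. Of 45 targets of ATF4, the factor of the integrated stress response, 3 were called higher and 0 lower, with a median of 0.08. PPP1R15A, which ends that response by bringing a phosphatase to eIF2, had 187, 147, 153 and 234 CPM in Combo libraries, against 66.1, 75.0, 60.7 and 153 CPM in MYCi975 libraries. The library labelled MYCi975 replicate 4 was within the Combo range (log2 fold change 1.02 ± 0.22, adjusted p = 0.0321). DDIT4, an inhibitor of the growth kinase mTORC1, had 172, 113, 142 and 128 CPM in Combo libraries, against 79.8, 73.2, 72.8 and 93.4 CPM in MYCi975 libraries, with no overlap (log2 fold change 0.80 ± 0.14, adjusted p = 0.0105). The third was the stress factor ATF3 (0.86 ± 0.20, adjusted p = 0.04), which with the nuclear receptor NR4A1 (0.51 ± 0.11, adjusted p = 0.0293) made up the 2 of 20 immediate early genes called higher. In the first set 15 ATF4 targets were called higher and 3 lower, and 8 immediate early genes higher and 1 lower. The count of ATF4 targets called higher was 0 without any 1 of MYCi975 replicates 1 to 3 and 1 without Combo replicate 1, 3 or 4.

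Mitochondrial genes were mostly lower without passing the test. Calls with all 8 libraries stand here beside 0.672% of all genes called higher and 1.03% lower. Of the 13 mRNAs encoded in mitochondrial DNA 0 were called by edgeR with all 8 libraries (8 were lower at an unadjusted p below 0.05 and 4 were called lower by DESeq2), although their median was -0.68, and 8 were called lower in the first set; here the share of counts from mitochondrial ribosomal RNA and the library set move with the values, and their part was not tested. MT-ATP6, a subunit of ATP synthase, had 779, 902, 1209 and 536 CPM in Combo libraries, against 1889, 2089, 2294 and 709 CPM in MYCi975 libraries, and both groups were lowest in replicate 4 (log2 fold change -1.03 ± 0.31, adjusted p = 0.0799). Of 50 nuclear genes of complex I 0 were called by edgeR, around a median of -0.22, with 7 lower and 1 higher at an unadjusted p below 0.05 and 2 called lower by DESeq2. In the first set 3 were called lower, beside 9.06% of all genes. Of 40 genes of complexes II to V 2 were called lower, COX6B1 of cytochrome oxidase (-0.57 ± 0.12, adjusted p = 0.0293) and ATP5MC3 of ATP synthase (-0.58 ± 0.14, adjusted p = 0.0478), with a median of -0.30; in the first set 11 were. Of 30 glycolysis and hypoxia genes 3 were called lower, GAPDH (-0.33 ± 0.07), LDHA (-0.53 ± 0.13) and PKM (-0.60 ± 0.15), and the glucose transporter SLC2A3 was called higher (0.47 ± 0.12); in the first set 10 were called lower and 4 higher. Of 62 genes of ribosome biogenesis, 79 cytosolic ribosomal proteins and 31 proteasome subunits 0 were called by edgeR in either direction with all 8 libraries. In the first set 5 were called higher and 8 lower in ribosome biogenesis, 1 and 0 among ribosomal proteins and 0 and 12 in the proteasome. That set called 7.95% of all genes higher and 9.06% lower. At an unadjusted p below 0.05 there were 5 higher and 7 lower in ribosome biogenesis, 1 and 3 among ribosomal proteins and 0 and 12 in the proteasome, and DESeq2 called 3, 0 and 2 of them.

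Outside these lists, 4 more of the 12 named falls had groups that did not overlap. SERTAD4 had 29, 37.5, 34.7 and 23.0 CPM in Combo libraries, against 73.6, 81.0, 76.2 and 45.0 CPM in MYCi975 libraries (log2 fold change -1.15 ± 0.16, adjusted p = 0.00727). STARD13, a GTPase-activating protein, had 8.96, 9.07, 8.50 and 7.05 CPM in Combo libraries, against 17.2, 20.2, 18.6 and 11.5 CPM in MYCi975 libraries (log2 fold change -1.0 ± 0.15, adjusted p = 0.00869). In both genes the lowest library of each group was replicate 4. BACE2, an aspartyl protease, fell by 0.82 and B4GALT5, a Golgi galactosyltransferase, by 0.73 on the log2 scale, with adjusted p of 0.00892 and 0.0177.

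Some named genes missed the threshold with all 8 libraries and passed it in the first set. The immediate early factor KLF6 had 319, 281, 300 and 465 CPM in Combo libraries, against 212, 178, 161 and 303 CPM in MYCi975 libraries, where 1 MYCi975 library overlapped the Combo range (log2 fold change 0.68 ± 0.17, adjusted p = 0.0529; 0.77 in the first set, adjusted p = 0.00037). The haem oxygenase HMOX1 had 685, 490, 562 and 549 CPM in Combo libraries, against 449, 392, 417 and 482 CPM in MYCi975 libraries, without overlap (log2 fold change 0.39 ± 0.10, adjusted p = 0.0502; 0.59 in the first set, adjusted p = 0.00036). Of 15 inhibitors of mTORC1 signalling 1 was called higher, DDIT4, and 0 lower, beside 0.672% and 1.03% of all genes. In the first set 2 were called higher and 3 lower. Of the others on this list, CASTOR2 was at -0.62 ± 0.17 (adjusted p = 0.0607) and the translation repressor EIF4EBP2 at -0.47 ± 0.13 (adjusted p = 0.0667). XBP1, the ER stress factor, was at 0.34 ± 0.10 (adjusted p = 0.0814) on top of MYCi975 and at 0.87 in TMP195 against vehicle (adjusted p = 4.8e-05).

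Whether TMP195 acted alike with and without MYCi975 was tested as the difference between its change on top of MYCi975 and its change against vehicle, which share no library. In TMP195 against vehicle 2009 genes were called (9.65%; 6.07% higher and 3.57% lower), and of the 355 genes called on top of MYCi975, 210 were called there too in the same direction, which is 59.2% of the 355 and 10.5% of the 2009. The difference was called for 30 genes (0.144%), 9 with a positive (0.0432%) and 21 with a negative difference (0.101%), and for 117 in the first set (0.558%). A negative difference means a smaller rise, or a larger fall, with MYCi975 present. Of the ATF4 targets 33 of 45 were called higher in TMP195 against vehicle, with a median of 0.65, and the difference was called negative for 9 of them. Of the mitotic genes 48 of 55 were called lower in TMP195 against vehicle, with a median of -0.62, and the difference was called positive for 8. No replication, cholesterol synthesis or ER chaperone gene had a called difference with all 16 libraries. In the first set 11 of the 59 replication genes had a negative one and 1 of the 23 ER chaperone genes a positive one. Among the 19 genes of SREBP regulation and sterol uptake 1 had a positive called difference, with all 16 libraries and in the first set.

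**Figure D4:**
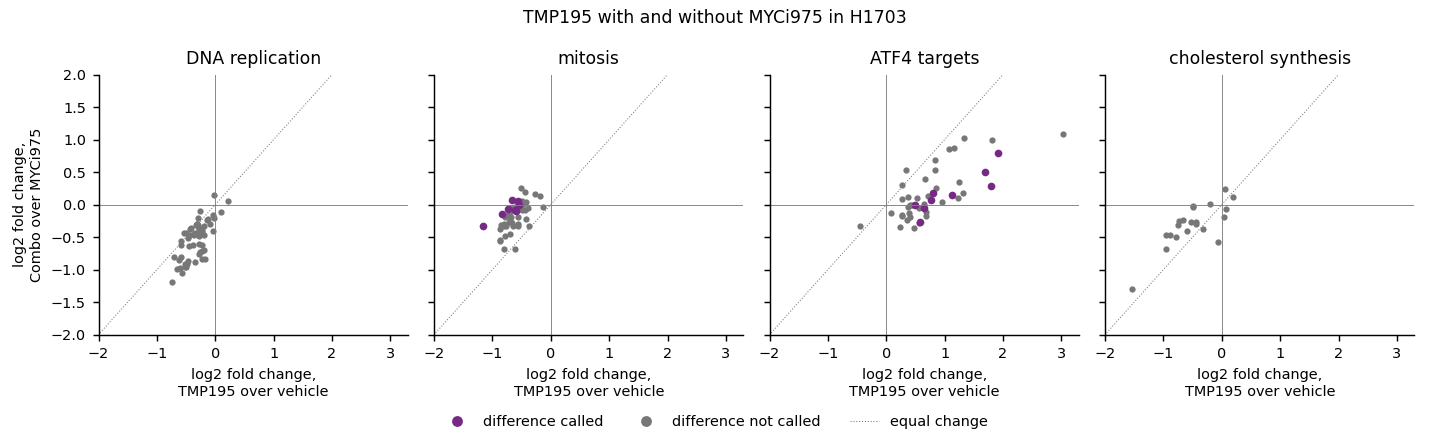
Log2 fold change of Combo over MYCi975 (y axis) against that of TMP195 over vehicle (x axis) for the members of 4 gene lists in H1703; purple points have a called difference between the 2 changes and the dotted line marks equal change. ATF4 targets lie mostly below the line, with 9 of 45 called, and mitotic genes mostly above it, with 8 of 55 called.

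TRIB3, a pseudokinase induced by ATF4, had the smallest p for the difference. It averaged 59.0 ± 4.13 CPM in Combo, 48.6 ± 6.05 in MYCi975, 56.1 ± 1.02 in TMP195 and 16.1 ± 2.59 in vehicle libraries (SD, n = 4 each). Its 3 treated groups stood close together and all above vehicle, with a change of 0.28 ± 0.11 on top of MYCi975 and 1.80 without it (difference -1.52, adjusted p = 8.23e-05; -1.32 in the first set). SESN2, a stress-induced inhibitor of mTORC1, averaged 64.2 ± 4.13 CPM in Combo, 45.4 ± 10.1 in MYCi975, 64.7 ± 7.66 in TMP195 and 20.0 ± 3.14 in vehicle libraries (difference -1.20, adjusted p = 0.0205). BEX2 (-2.13), FBLL1 (-1.52), LAMP3 (-1.16) and DDIT4 (-1.12) differed in the same sense. The mitotic kinesin KIF20A averaged 53.3 ± 4.81 CPM in Combo, 67.1 ± 8.13 in MYCi975, 56.6 ± 8.82 in TMP195 and 126 ± 6.98 in vehicle libraries (difference 0.83, adjusted p = 0.0459). TOP2A (0.67), the spindle protein ASPM (0.69) and the kinase PLK1 (0.75) had differences of the same sign.

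**Figure D5:**
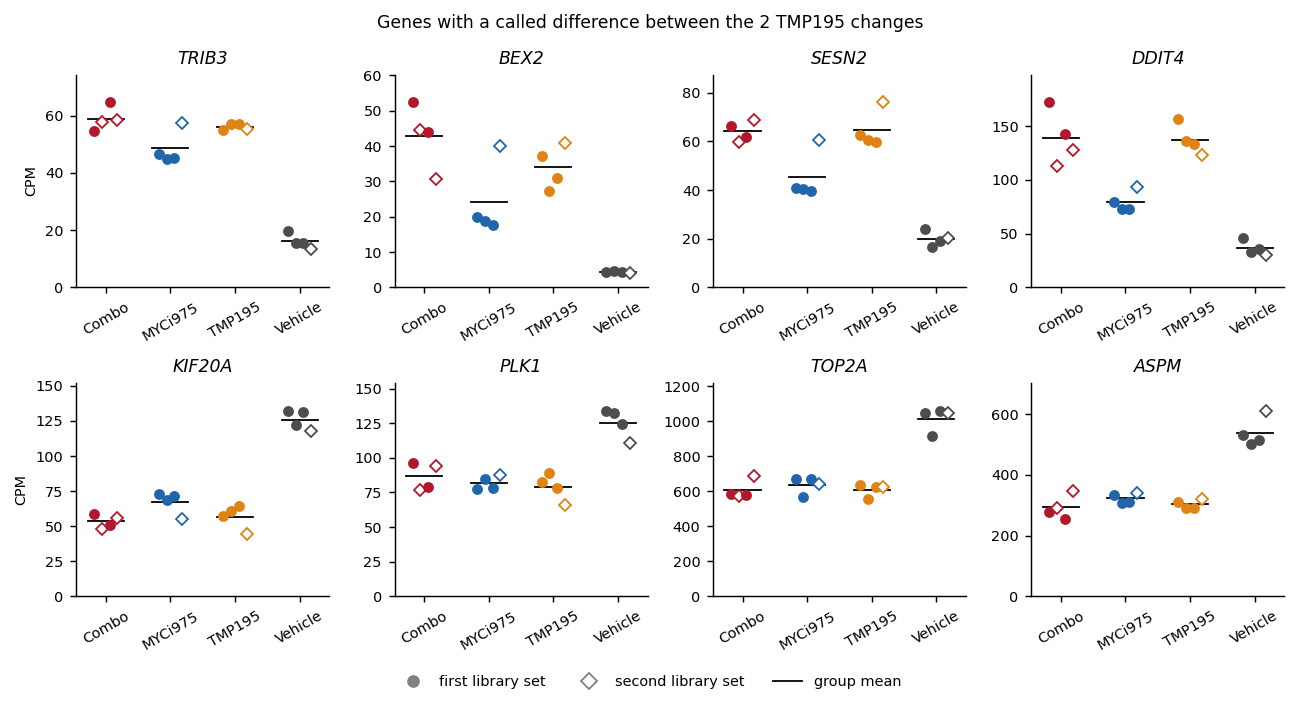
CPM (y axis, from 0) in the 16 H1703 libraries of 8 genes with a called difference between the TMP195 changes with and without MYCi975; filled circles are the first library set, open diamonds the second and black lines means of 4 libraries. Vehicle libraries are the lowest for TRIB3 (mean 16.1 CPM), BEX2, SESN2 and DDIT4 and the highest for KIF20A, PLK1, TOP2A (mean 1015 CPM) and ASPM.

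The same comparison in the other 3 lines shared the direction of most named genes. The share of all genes with the same sign was not counted, and these fits held no term for the library set. In H838, MYCi975 replicate 3 was grouped with the second set too. Of the 12 named rises, 11 of 12 were positive in H460, 8 of 11 tested in H838 and 10 of 11 tested in H1755, with medians of 0.50, 0.17 and 0.18 beside 0.95 in H1703. Of the 12 named falls, 11 were negative in H460, 12 in H838 and 11 in H1755, with medians of -0.42, -0.21 and -0.16 beside -0.87 in H1703; the H1703 values were the ones used to choose these genes. DNAJB9 rose in H460 (1.16 ± 0.13, adjusted p = 0.00287) and H838 (1.21, adjusted p = 0.00717), and in H1755 its change was 1.19 (adjusted p = 0.1). Of all genes tested, 1.06% were called in H460, 0.0242% in H838 and 0.0544% in H1755. Of the 23 ER chaperone genes, H460 had 9 called higher, H838 had 3 and H1755 had 3, and 0 were called lower. Replication genes were called lower in 5 of 59 in H460 and in 0 of 59 in H838 and H1755. The difference between H1703 and the mean of the other lines was called for 0 of 24170 genes by edgeR, with 1737 at an unadjusted p below 0.05 and 20 called by DESeq2. It was called for 40 genes with a term for the library set within each line and for 325 without the library labelled MYCi975 replicate 4, so the count depended on that library.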

How the data were processed

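RNA was measured in 64 libraries, 4 from each of 16 groups. The authors deposited raw counts, whole numbers of reads assigned to each gene, made with STAR and featureCounts after trimming with Trimmomatic on GRCh38, according to the submitters' processing notes; their versions, annotation and strand setting are not given in the sources used here. Symbols and positions came from a supplied gene table and GENCODE 29. Per the labels' protocols, RNA came from columns and libraries from a stranded total RNA kit.

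Counts were tested with edgeR 4.0.16 in R 4.3.3: TMM scaling, filterByExpr by group, and quasi-likelihood tests on the 4 group means of the 16 H1703 libraries, adjusted by Benjamini-Hochberg over all genes tested, with a call at 0.05. CPM values use TMM-scaled library sizes, and SE is the log2 fold change over the root of F. DESeq2 1.42.0 was an alternative. Totals of 19719225 to 29738700 counts leave low genes the least precise. The tests were also run on simulated counts, which held no shift between library sets and no deviant library. That run therefore does not bear on those features of these data. The labels state no pairing, and the main test did not take the numbers as pairs. Same-numbered Combo and MYCi975 libraries correlated at 0.283, -0.0233, 0.333 and 0.607. Replicates 1, 3 and 4 thus deviated in part together, which the main test leaves out. With a replicate block 4440 genes were called in place of 355.

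Named genes were the 12 largest rises and 12 largest falls among called genes with a mean of at least 5 CPM and groups that do not overlap, leaving out clone, locus, pseudogene, antisense, mitochondrial, histone and small RNA names, the 4 members with the smallest p of each of the 18 described lists, the class IIa deacetylases, MEF2 factors and MYC, and the 5 called genes with the largest difference in each direction for the other tests. The comparison and the gene lists were chosen with earlier results of these data known. A few genes that meet the rule or belong to a list are counted but not reported here by name. Promoter sequences are RefSeq windows of GRCh38.p14. The term for replicate 4 with Combo replicate 2 taken out, and the first-set and left-out values of the ribosomal RNA share, were added after seeing the data, as was the placing of libraries on the TMP195 axis.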

Additional observations from a re-analysis of the deposited data

Results flagged for a closer look

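Over the 97 named genes reported here, 1 library lay far from the other 3 of its group in 25 cases, and in 21 of them it was the library labelled MYCi975 replicate 4; chance alone flags about 1 group in 20. That library was the highest of its group for NGFR (76.0 CPM), TVP23C (11.3 CPM), ACKR4 (5.30 CPM), ODC1-DT (12.5 CPM), DIXDC1 (20.6 CPM), PPP1R15A (153 CPM), ATF3 (91.0 CPM), SESN2 (60.5 CPM), BEX2 (39.9 CPM), TRIB3 (57.6 CPM) and LAMP3 (55.3 CPM). It was the lowest for PCNA (43.8 CPM), MCM4 (96.4 CPM), TMEM97 (28.9 CPM), ACLY (294 CPM), SEC16A (176 CPM), CASTOR2 (15.1 CPM), EIF4EBP2 (70.2 CPM), COX6B1 (47.1 CPM), GAPDH (3319 CPM) and HDAC4 (33.5 CPM). The other 4 cases were the lowest value of BACE2 in Combo replicate 4 (45.2 CPM), the highest of TOP2A in Combo replicate 4 (688 CPM), the lowest of KIF20B in Combo replicate 2 (91.0 CPM) and the lowest of EDEM2 in MYCi975 replicate 3 (9.69 CPM).

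The change that TMP195 made on top of MYCi975 differed from its change against vehicle, by the test of the difference itself, in 10 named genes. The difference on the log2 scale was negative for BEX2 (-2.13), TRIB3 (-1.52), FBLL1 (-1.52), SESN2 (-1.20), LAMP3 (-1.16) and DDIT4 (-1.12). It was positive for KIF20A (0.83), PLK1 (0.75), ASPM (0.69) and TOP2A (0.67). In the first set of libraries the signs were the same, with -1.45 for BEX2 and -1.32 for TRIB3.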

How the results depend on the processing

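The number of genes called between Combo and MYCi975 (355, of which 140 higher and 215 lower) depended strongly on the libraries and on how the spread was estimated. No alternative turned round the direction of any of the 355 that it could test. The 355 were picked from these libraries and each alternative uses them again, so the kept direction was nearly fixed in advance. The counts (higher and lower) were 1329 (543 and 786) with DESeq2, 850 (279 and 571) with no filter on low counts, 1841 (810 and 1031) with a term for the second library set, 3001 (1283 and 1718) with a term for replicate 4 and Combo replicate 2 taken out, 3568 (1668 and 1900) with the first set alone, and 4 (3 and 1) with the 8 libraries fitted alone. Leaving out 1 of the 16 libraries gave 26 to 4548 calls, 11 to 2149 higher and 14 to 2399 lower; it was 4548 without the library labelled MYCi975 replicate 4, 26 to 28 without 1 of MYCi975 replicates 1 to 3, and 47 to 142 without 1 Combo library. The cause was not tested. Other size factors (348), all 64 libraries in 1 fit (334) and scaling that leaves out mitochondrial genes and abundant non-coding RNA (372) stayed within 1.5 times, and no scaling moved the median of all genes by over 0.1.

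A replicate block gave 4440 calls (1977 and 2463), and 4126 (1713 and 2413) without Combo replicate 2. Combo replicates 1, 3 and 4 correlated best with the MYCi975 library of their own number. Combo replicate 2, of the second set, correlated best with number 4, at 0.0669. For the difference with and without MYCi975 (30, 9 and 21) the block gave 289 (82 and 207), DESeq2 112 (37 and 75), the term for the second set 167 (42 and 125), the replicate 4 term 220 (72 and 148), the first set 117 (30 and 87) and all 64 libraries 0; with no filter 5 were higher. Leaving out 1 library gave 3 to 57, 0 to 13 higher and 3 to 44 lower. For H1703 against the other lines (0) the block gave 1670 (567 and 1103), a term for library set within line 40 (24 and 16), DESeq2 20 (10 and 10) and other size factors 1 higher; leaving out 1 library gave 0 to 325, 0 to 113 higher and 0 to 212 lower, with 325 without the library labelled MYCi975 replicate 4. The ribosomal RNA share differed by -2.07 percentage points (Combo minus MYCi975), by -1.02 in the first set and by -3.38 to -1.27 with 1 library left out. The 24 named rises and falls were chosen by their size in these same libraries. All 24 kept their call in the first set, under DESeq2 and under the block. With the 8 libraries alone CREB3L2 and DNAJB9 did. Of the 24, 10 lost it with all 64 libraries in 1 fit, 13 to 15 without 1 of MYCi975 replicates 1 to 3, 11 without Combo replicate 4 and 4 to 6 without 1 other Combo library.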

Other observations

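On the axis between the mean of the first MYCi975 libraries (0) and that of the first Combo libraries (1), over the 3557 genes that were called in the first set and also tested with all libraries, libraries that did not enter that comparison had a median place of 1.40 for Combo replicate 4, 0.977 for Combo replicate 2, 1.10 for the library labelled MYCi975 replicate 4, 0.579 for TMP195 replicate 4 and -0.27 for vehicle replicate 4. Of these genes, 3042 were nearer the Combo than the MYCi975 mean in the library labelled MYCi975 replicate 4. FGFR1, which is amplified with its neighbours in H1703, stood at 332 to 363 CPM in Combo libraries and at 386 to 497 CPM in MYCi975 libraries, without overlap.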
